A study of Mus musculus with 24 samples.

Results

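The 6 libraries described here were taken by their genotype and treatment labels from the 24 of the study: 3 libraries labelled TLR4-/- with rmCIRP and rmTGF-β1, and 3 labelled TLR4-/- with rmTGF-β1 alone. Library 3 of the former group carried more mRNA of neutrophil-attracting chemokines, genes of the amino acid and antioxidant stress responses, the neurotrophin receptor Ntrk2 and the neuropeptide precursor Penk than its 2 replicates, and less mRNA of contractile genes. Cell cycle genes were also lower there, by little more than single libraries of the other conditions differed. Library 3 with rmTGF-β1 alone leaned the same way on most of these genes, and rmTGF-β1 libraries 2 and 3 differed most in type I interferon-stimulated genes. All 6 come from cultured pulmonary fibroblasts of C57BL/6 mice aged 4 to 8 weeks, from cells pooled over 3 to 4 lungs and used at passages 3 to 6. They received 2 ng/mL of recombinant mouse TGF-β1 for 24 hours after a night in Opti-MEM medium, to which 1 µg/mL of recombinant mouse CIRP was added in one group. PBS and rmCIRP alone were the other treatments, and each was given to cells of both genotypes in 3 libraries. The labels do not say whether the 3 libraries of a condition came from separate cultures, so the p-values below measure only the spread between these samples, which may be technical.

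TGF-β1 acts through SMAD proteins and turns fibroblasts into myofibroblasts, which build actin stress fibers and deposit collagen and elastin. CIRP is a cold-inducible RNA-binding protein that cells release under stress, and outside the cell it is bound by TLR4 with its partner MD2 (Ly96), a receptor that activates NF-κB and, through type I interferon, a second wave of antiviral genes. The comparison of the 2 groups asks what rmCIRP adds to rmTGF-β1 in cells labelled as lacking that receptor.

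Tlr4 mRNA did not separate the genotype labels. Its normalized counts, which are reads per gene divided by the size factor of the library, were 702, 808 and 769 with rmTGF-β1, and in the libraries with both agents they were 828, 783 and 881. The 12 libraries labelled TLR4-/- ranged from 702 to 941 and the 12 WT libraries from 630 to 802. Reads on genes numbered 31585969 to 37949832 in the 6 libraries, and mitochondrial genes took 1.49% to 1.64% of them. All 15 fibroblast markers were above a mean of 50 normalized counts, and so were all 18 macrophage markers, among them Csf1r, Adgre1 and Lyz2. The macrophage markers summed to 410200 to 429100 normalized counts with rmTGF-β1 and 390700 to 487600 with both agents, and the fibroblast markers to 883100 to 924200 and 764300 to 898100. Of the markers of other cells, 2 of 9 lymphocyte and 3 of 8 neutrophil genes had no read in any of the 6 libraries. In such bulk samples, fewer cells of a type and less RNA per cell cannot be told apart.

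The spread among replicates was wider in these conditions than in the rest of the study. The biological coefficient of variation common to all genes was 0.113 for the 3 libraries with both agents and 0.0708 for the 3 with rmTGF-β1, while the other 6 conditions lay between 0.0289 and 0.044. With both agents, libraries 1 and 2 resembled each other: the log2 ratios of their counts had an SD of 0.16 over 12311 genes, inside the range of 0.147 to 0.182 of replicate pairs in the other conditions. Library 3 gave SDs of 0.348 against library 1 and 0.287 against library 2. For rmTGF-β1, the SD was 0.168 between libraries 1 and 2, 0.201 between 1 and 3, and 0.257 between 2 and 3. On the first principal component of the 12 libraries labelled TLR4-/-, which held 62.1% of the variance of the 500 most variable genes, library 3 with both agents stood at 21.8. The other libraries with both agents stood at 5.12 and 11.1, and the rmTGF-β1 libraries at 4.19, -2.2 and 14.7. The 6 libraries without rmTGF-β1 lay between -12.1 and -7.66.

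A gene was counted as setting a library apart when its log2 normalized count lay above or below those of both other libraries of the condition and at least 0.5 from their mean. Over the 12311 genes that averaged 50 or more normalized counts in the 24 libraries, library 3 with both agents stood apart on 1040 genes, 8.45% of them, with 474 above and 566 below. Library 1 stood apart on 499 genes and library 2 on 126. The rmTGF-β1 libraries 1, 2 and 3 stood apart on 89, 280 and 422 genes. In the 18 libraries of the other conditions the counts ran from 81 to 163 with a median of 112.5. Library 2 with both agents and library 1 with rmTGF-β1 were therefore within the range of those 18 libraries, and the other 4 were above it. Under a stricter rule added after seeing the data, at least 0.5 from each other library, the counts with both agents were 128, 40 and 706 and those with rmTGF-β1 36, 132 and 249, against 33 to 79 in the other 18 libraries. These genes were chosen on the deviations themselves, so their values below are descriptions without a test.

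**Figure D1:**
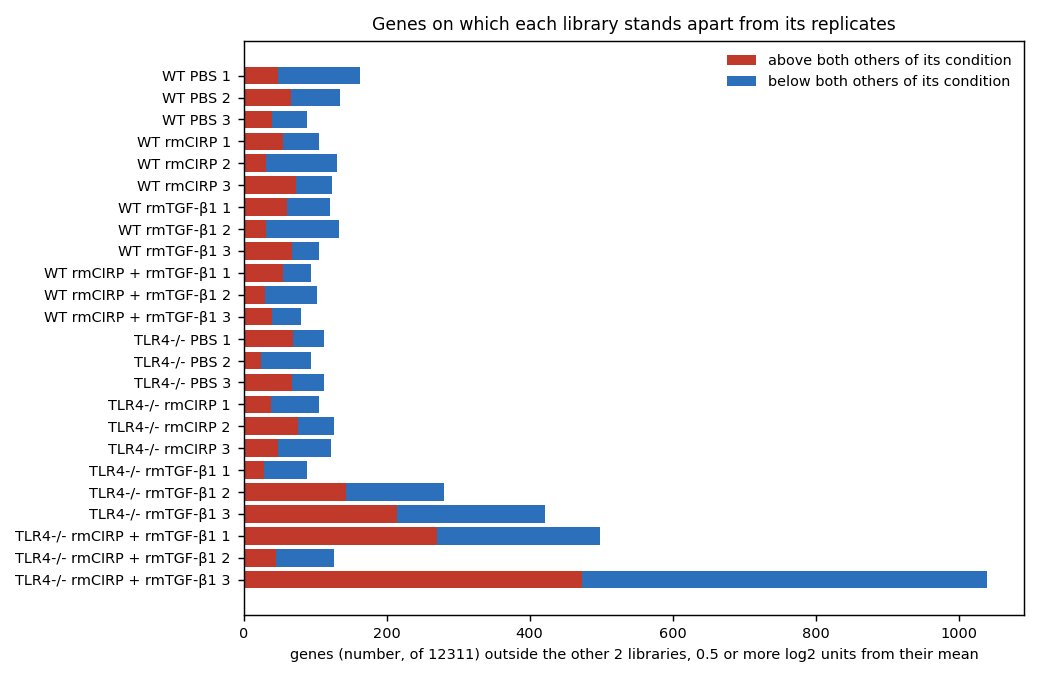
Number of genes, of 12311, on which each of the 24 libraries lay above (red) or below (blue) both other libraries of its condition and at least 0.5 log2 units from their mean. The bar of library 3 with rmCIRP and rmTGF-β1 and the TLR4-/- label reaches 1040 genes, against 81 to 163 in the 18 libraries of the other 6 conditions.

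The gene furthest out in library 3 with both agents was Ntrk2, which encodes TrkB, the receptor of brain-derived neurotrophic factor. Its normalized counts were 16.8, 26.7 and 344 in libraries 1, 2 and 3 with both agents, and 13.3, 11.7 and 48.7 with rmTGF-β1. Library 3 was the high one in each condition, and its deviation from the mean of the other 2 was 3.96 log2 units with both agents and 1.89 with rmTGF-β1. Il33, an alarmin cytokine, was at 66.1, 78.3 and 550 with both agents and at 42.6, 41.4 and 84.2 with rmTGF-β1. Penk, the precursor of enkephalin opioid peptides, was at 199, 316 and 1560 with both agents and at 116, 137 and 315 with rmTGF-β1. Both genes repeat that order, with the third library the highest of each condition. Syt7, a calcium sensor of membrane fusion, was at 45.4, 72.1 and 374 with both agents. Upp1, which cleaves uridine, was at 97.6, 149 and 539. Igfbp3, which binds insulin-like growth factors, was at 829, 1144 and 3785. For these 3 genes the third rmTGF-β1 library was also the highest of its condition, at 89.5, 150 and 1615. Serpinb2, an inhibitor of plasminogen activators, differed between the libraries of both conditions, with 10093, 19464 and 42964 normalized counts with both agents and 5047, 5239 and 18563 with rmTGF-β1.

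On the low side of library 3, the gene furthest out was Gabra4, a subunit of the GABA-A receptor, at 67.1, 48.9 and 12.4 with both agents and 54, 64.8 and 47.9 with rmTGF-β1. C1qtnf3, a secreted protein related to complement C1q, was at 321, 231 and 65.9 with both agents and 442, 440 and 207 with rmTGF-β1. Npas4, an activity-regulated transcription factor, was at 387, 263 and 95.8 with both agents, and Akap5, a scaffold of protein kinase A, at 173, 140 and 48.4. Atoh8, a basic helix-loop-helix transcription factor, was at 1068, 685 and 282 with both agents and 950, 1139 and 577 with rmTGF-β1. In each of these genes the third library was the lowest of its condition, and with both agents library 1 was the highest.

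Among the gene lists, inflammatory cytokines and chemokines lay furthest above the replicates in library 3 with both agents, counting lists with at least 5 genes at this level: the median deviation of 22 genes was 0.63, against 0 for all 12311 genes. Of these 22, 12 stood apart above and 3 below. Cxcl1, which draws neutrophils through CXCR2, had 166, 261 and 1334 normalized counts with both agents and 81.4, 132 and 159 with rmTGF-β1. Cxcl2 had 239, 232 and 478 with both agents, and Cxcl3 had 50.3, 75.6 and 170. Lif, a cytokine of the interleukin-6 family, had 6856, 9403 and 22072, and Il6 had 8065, 12233 and 23010. Ccl2, which draws monocytes, had 7797, 10322 and 17118. Other members did not share this order. Tnf had 730, 671 and 538 normalized counts in libraries 1, 2 and 3, and Il1b had 66.1, 112 and 73.1. The 3 members apart on the low side were Ccl4, Ccl20 and Cxcl10, the first with 429, 378 and 264.

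The CXC chemokine genes Cxcl1, Cxcl2 and Cxcl3, which lie on the same chromosome, are shown with their promoters because the third library was the highest with both agents for each of them. The promoter sequences are from RefSeq on build GRCm38.p6 and cover the 250 bases before the first start listed for a gene, from chr5:90890995-90891244 for Cxcl1, chr5:90903649-90903898 for Cxcl2 and chr5:90785851-90786100 for Cxcl3, all on the plus strand. Capitals mark matches to GGGA, any 2 bases and TTCC on either strand, a form of the κB motif bound by NF-κB, with overlapping matches joined.
Cxcl1: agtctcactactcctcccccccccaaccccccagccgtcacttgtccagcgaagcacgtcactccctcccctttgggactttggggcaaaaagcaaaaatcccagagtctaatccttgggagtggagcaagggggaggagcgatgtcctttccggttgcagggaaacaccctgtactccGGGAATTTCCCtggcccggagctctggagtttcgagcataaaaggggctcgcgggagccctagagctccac
Cxcl2: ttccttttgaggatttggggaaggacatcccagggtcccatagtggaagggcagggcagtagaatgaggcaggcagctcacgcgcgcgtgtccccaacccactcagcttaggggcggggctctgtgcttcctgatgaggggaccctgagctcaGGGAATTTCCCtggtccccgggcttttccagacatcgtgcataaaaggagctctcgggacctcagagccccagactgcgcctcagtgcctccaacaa
Cxcl3: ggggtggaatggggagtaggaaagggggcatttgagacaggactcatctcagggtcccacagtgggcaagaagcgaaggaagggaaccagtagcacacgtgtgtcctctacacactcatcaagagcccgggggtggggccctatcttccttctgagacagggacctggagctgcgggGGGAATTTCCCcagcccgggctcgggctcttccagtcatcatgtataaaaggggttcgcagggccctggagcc
Each of the 3 holds overlapping matches on opposite strands within the same marked stretch, the upstream one beginning 71, 97 and 73 bases before the start. The promoter table held 16 of the 24 listed cytokine and chemokine genes, of which 6 held a match (37.5%), as did 1.17% of all 27025 promoters. Il6 was among the 6, and Tnf and Il1b had no match to these letters in this window.

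Some of the stress response lists lay above the replicates in the same library and others did not. The amino acid response genes driven by ATF4 had a median deviation of 0.38, with 18 of 19 genes above 0. Phgdh, the first enzyme of serine synthesis, had 4699, 5451 and 9964 normalized counts with both agents, and Cth, which makes cysteine, had 738, 949 and 1941. The antioxidant genes controlled by NRF2 had a median deviation of 0.28, with 13 of 14 above 0. Hmox1, which degrades heme, had 45206, 52882 and 110237 with both agents and 43679, 39766 and 52550 with rmTGF-β1. Immediate early genes had a median deviation of 0.35, with 15 of 16 above 0, and Egr1 had 1834, 1669 and 3827 normalized counts. Metallothionein genes, which buffer zinc, had a median of 0.51 over 3 genes. Heat shock proteins had a median of 0.07, p53 targets one of -0.05, and genes of endoplasmic reticulum folding and stress one of -0.15, with 16 of 19 below 0. For the genes named here the third library was the high one, and libraries 1 and 2 differed from each other by less than from library 3.

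Markers of some other cell types lay above their replicates in library 3 and those of others below. Their part in the results above was not tested. The median deviation was -0.4 for 5 mesothelial, -0.19 for 7 smooth muscle and pericyte and -0.1 for 3 epithelial markers. All 18 macrophage markers were above 0, with a median deviation of 0.26, and their sum was 487600 normalized counts in library 3 against 426700 and 390700 in libraries 1 and 2. All 20 lysosomal genes were above 0 as well, with a median of 0.19. The 4 endothelial markers at this level had a median of 0.98 and each stood apart above. Pecam1, an adhesion molecule of endothelial cells, had 62.1, 53.4 and 191 normalized counts, and the sum over 9 endothelial markers was 967.6, 816.1 and 1555. S100a8, a calcium-binding protein of neutrophils, had 118, 147 and 384, while Ly6g, which defines neutrophils, had at most 1.03.

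Contractile and proliferation genes lay below the replicates. The median deviation of 15 myofibroblast contractile genes in library 3 was -0.47, with 14 below 0 and 7 standing apart. Acta2, α-smooth muscle actin, had 213815, 198599 and 139288 normalized counts with both agents and 248296, 248723 and 201060 with rmTGF-β1. Cnn1, calponin, had 27882, 24761 and 14889 with both agents, and Lmod1, which nucleates actin filaments in smooth muscle, had 5351, 4258 and 2101. Myh10, a nonmuscle myosin, had 8165, 6628 and 4106. In all 4 genes the third library was the lowest with both agents, and the third rmTGF-β1 library was the lowest of its condition too. The 26 cell cycle genes were all below 0, with a median of -0.36, as for Rrm2, a subunit of ribonucleotide reductase, at 2801, 2544 and 1772. Over the 18 libraries of the other conditions the median of this list ran from -0.33 to 0.29. YAP and TEAD targets had a median of -0.37, with 10 of 12 below 0, and Ccn2 had 91432, 88551 and 63691. Eln, which encodes elastin, had 1134, 846 and 353 with both agents and 2101, 1338 and 1130 with rmTGF-β1, so that it was lowest in the third library of each condition. Fibrillar collagens had a median of -0.23 over 9 genes, without a common direction: Col1a1 was lowest in library 3, at 252212, 229073 and 174630, and Col3a1 was highest there, at 61724, 52624 and 67203. Medians of -0.21 to 0.11 were found for these collagens in the other 18 libraries. Cytosolic ribosomal protein genes had a median of -0.03 and nuclear-encoded oxidative phosphorylation genes one of -0.05. The fibroblast markers had a median of -0.06 and none of the 15 stood apart. Smooth muscle and pericyte markers summed to 50090, 46450 and 34910 normalized counts with both agents, though 3 of the 7 were above 0, among them Kcnj8, a potassium channel of pericytes, at 103, 130 and 235. Mesothelial markers summed to 810.7, 829.4 and 687.1. The part of both lists in the lower contractile genes was not tested.

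**Figure D2:**
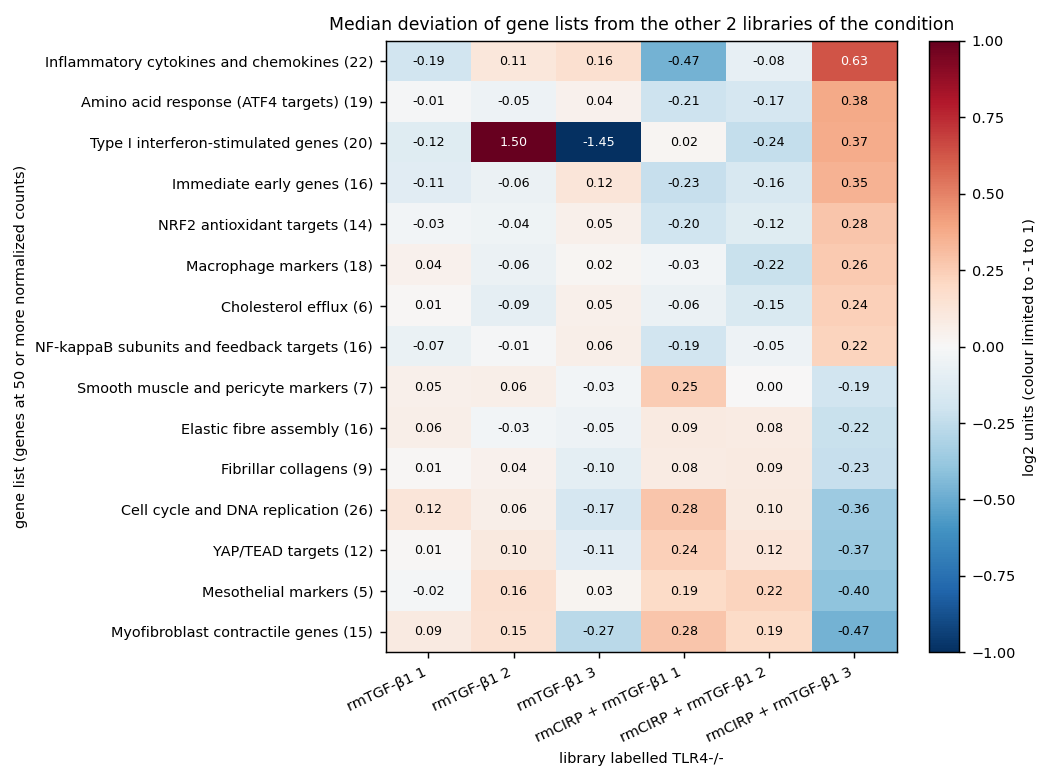
Median deviation (log2 units) of each gene list, in each of the 6 libraries, from the mean of the other 2 libraries of its condition, for lists of at least 5 genes with a median of at least 0.2 in size in some library. The right-hand column, library 3 with both agents, runs from 0.63 for inflammatory cytokines and chemokines to -0.47 for myofibroblast contractile genes, and the largest values of all are 1.5 and -1.45 for interferon-stimulated genes in rmTGF-β1 libraries 2 and 3.

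Library 1 with both agents lay on the opposite side of these lists. Each deviation is taken from the other 2 libraries, so those of libraries 1 and 2 include library 3. The median of library 1 was -0.47 for the cytokines and chemokines, where 10 of 22 genes stood apart below, and 0.28 for both the contractile and the cell cycle genes, while library 2 had -0.08, 0.19 and 0.1. For the cell cycle genes these values lay inside the range of -0.33 to 0.29 of the 18 libraries of other conditions. For the genes that set library 3 apart, the library lay outside the whole range of the other libraries labelled TLR4-/-: it was above all 11 of them in 429 of the 474 genes and below all 11 in 521 of the 566. The median deviation was 0.7 for the former and -0.66 for the latter, and 111 and 78 genes deviated by at least 1 log2 unit.

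Many genes that set library 3 with both agents apart also set apart library 3 with rmTGF-β1, a library of another condition. Of the genes above, 138 were shared, which is 29.1% of those of the library with both agents and 64.2% of the 215 of the rmTGF-β1 library. Of the genes below, 115 were shared, 20.3% and 55.6%. Opposite directions were found for 12 and 5 genes. Without the cut at 0.5, the rmTGF-β1 library lay on the same side as the library with both agents in 402 of the 474 genes above, with a median deviation of 0.34, and in 508 of the 566 genes below, with a median of -0.27. In the rmTGF-β1 library the median deviation was -0.27 for the contractile genes, with 14 of 15 below 0, and -0.17 for the cell cycle genes, with 25 of 26 below 0, while the cytokines and chemokines had 0.16. The value of the cell cycle genes lay inside the range of -0.33 to 0.29 of the 18 libraries of other conditions. Among the genes furthest above in that library were Fam167a, at 29.3, 15.9 and 98.4, and Bmp2, a ligand of the TGF-β family, at 101, 82.9 and 279.

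**Figure D3:**
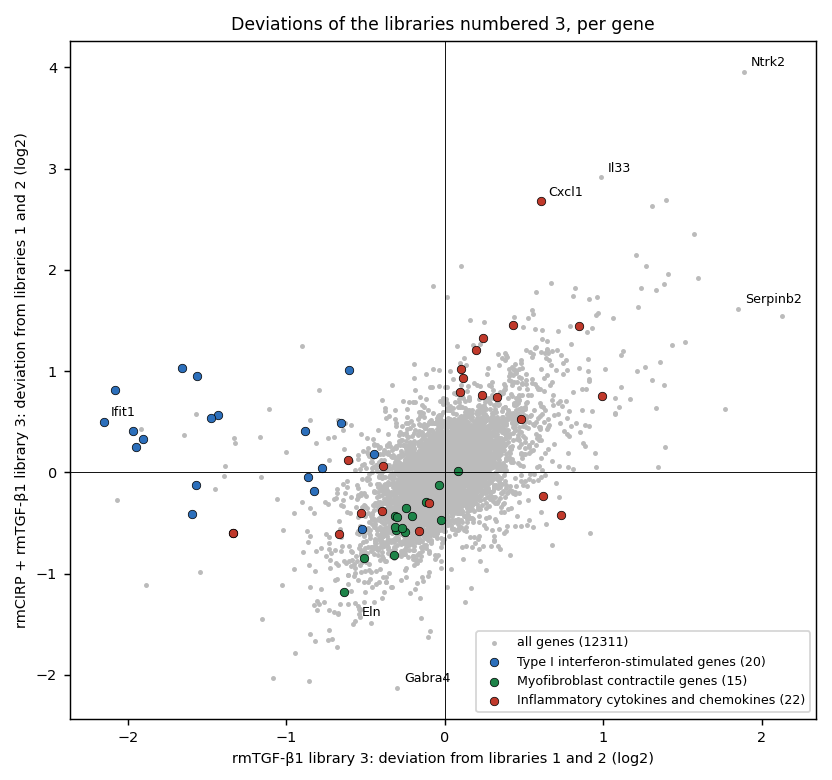
Deviation of each of 12311 genes (points) in library 3 with rmTGF-β1 (x axis) and in library 3 with both agents (y axis) from the mean of libraries 1 and 2 of the same condition, in log2 units, for the TLR4-/- label. Ntrk2, at 1.89 and 3.96, lies furthest to the upper right, the contractile genes (green) lie mostly to the lower left, and the interferon-stimulated genes (blue) lie to the left.

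Type I interferon-stimulated genes, which encode antiviral proteins, set rmTGF-β1 libraries 2 and 3 apart from each other. All 20 listed genes stood apart above in library 2, with a median deviation of 1.5, and 19 of 20 stood apart below in library 3, with a median of -1.45. The deviation of library 3 is taken from a mean that includes library 2, and that of library 2 from one with library 3. These 2 medians are therefore not separate. Ifit1, which binds viral RNA, had 141, 536 and 61.1 normalized counts in rmTGF-β1 libraries 1, 2 and 3, and 118, 84.5 and 142 with both agents. Ifit3 had 108, 484 and 60.3 with rmTGF-β1 against 62.1, 73.9 and 85.5 with both agents. Isg15, a ubiquitin-like modifier, had 402, 654 and 173 with rmTGF-β1 against 199, 142 and 327 with both agents. Rsad2, or viperin, had 54.9, 104 and 18.6 with rmTGF-β1 against 39.5, 52.5 and 60.8 with both agents. Library 2 was high and library 3 low in each, with library 1 between them. The libraries with both agents fell within the range of the rmTGF-β1 libraries for all 4 genes but Isg15, whose library 2, at 142, was below them. Single libraries of the other treatments differed in the same genes: Ifit1 was at 145, 114 and 486 with PBS and at 131, 645 and 122 with rmCIRP under the same label, and over the 18 libraries of the other conditions the median deviation of the list ran from -0.81 to 1.51.

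These 4 genes are shown with their promoters because all 4 were high in library 2 and low in library 3 of the rmTGF-β1 group. The sequences are the 250 bases before the gene's start from RefSeq on build GRCm38.p6, at chr19:34640639-34640888 and chr19:34583279-34583528 on the plus strand for Ifit1 and Ifit3, and at chr4:156200819-156201068 and chr12:26456453-26456702 on the minus strand for Isg15 and Rsad2. Capitals mark GAAA, any 2 bases and GAAA on either strand, the core of the interferon-stimulated response element, with overlapping matches joined.
Ifit1: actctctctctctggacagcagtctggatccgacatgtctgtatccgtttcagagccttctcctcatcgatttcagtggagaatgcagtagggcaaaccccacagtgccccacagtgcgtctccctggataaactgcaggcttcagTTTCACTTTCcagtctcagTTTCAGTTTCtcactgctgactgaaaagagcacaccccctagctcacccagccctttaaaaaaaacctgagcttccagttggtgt
Ifit3: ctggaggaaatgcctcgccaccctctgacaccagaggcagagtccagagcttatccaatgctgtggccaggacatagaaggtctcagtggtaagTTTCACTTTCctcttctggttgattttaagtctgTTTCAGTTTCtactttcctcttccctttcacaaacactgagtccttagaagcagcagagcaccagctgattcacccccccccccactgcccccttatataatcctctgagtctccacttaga
Isg15: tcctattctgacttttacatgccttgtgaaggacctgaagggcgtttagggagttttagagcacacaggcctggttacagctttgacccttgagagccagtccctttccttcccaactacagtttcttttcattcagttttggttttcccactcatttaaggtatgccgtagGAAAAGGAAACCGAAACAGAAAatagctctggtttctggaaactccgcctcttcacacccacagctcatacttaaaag
Rsad2: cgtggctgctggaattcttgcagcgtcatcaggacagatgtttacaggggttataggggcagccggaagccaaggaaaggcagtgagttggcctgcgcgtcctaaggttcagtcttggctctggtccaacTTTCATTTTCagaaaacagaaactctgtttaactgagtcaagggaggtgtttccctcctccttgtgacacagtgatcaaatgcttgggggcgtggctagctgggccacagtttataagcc
The promoter table held 15 of the 20 listed genes, of which 8 held a match (53.3%), as did 3.04% of the 27025 promoters of the same length. Stat2 and Cxcl10 were among those with a match, and Irf7 and Ifi44 had none in this window.

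**Figure D4:**
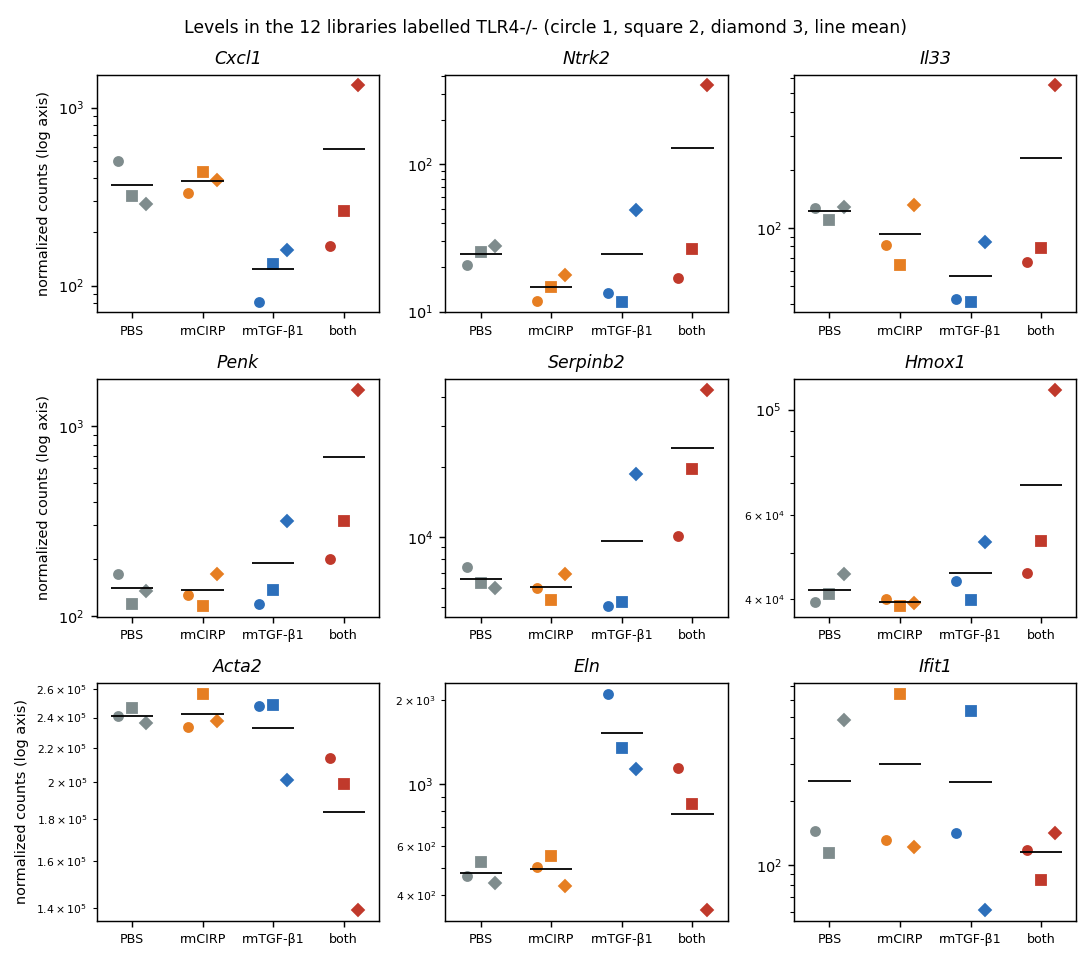
Normalized counts (log axis) of 9 genes in the 12 libraries labelled TLR4-/-, with library 1 as a circle, 2 as a square and 3 as a diamond, and a line at the mean of each treatment. Library 3 with both agents is the highest of all 12 for Cxcl1, Ntrk2, Il33, Penk, Serpinb2 and Hmox1 and the lowest for Acta2 and Eln, while Ifit1 is high in 1 library of each treatment other than both agents.

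The deviating genes were then set beside comparisons that share no library with the condition they come from. In WT cells, rmCIRP against PBS called 19.8% of the 16258 genes tested as higher and 24.1% as lower, at an adjusted p under 0.1 (edgeR quasi-likelihood, Benjamini-Hochberg). Of the 474 genes above in library 3 with both agents, 281 (59.3%) were higher and 45 (9.49%) lower in WT cells with rmCIRP, where 22.6% and 28.6% of the 12311 genes at this level were. Of the 566 genes below, 362 (64%) were lower and 35 (6.18%) higher. The shared genes were 10.1% of all higher and 10.3% of all lower genes of the WT comparison at this level. For library 3 with rmTGF-β1, which received no rmCIRP, 127 of its 215 genes above (59.1%) were higher in WT cells with rmCIRP, and of its 207 genes below 98 (47.3%) were lower and 73 (35.3%) higher. For library 1 with both agents, 75.1% of the genes below were higher and 70.4% of those above were lower. Its deviations are taken from a mean that includes library 3, so these shares are not separate from those of library 3. For rmTGF-β1 library 2, 55.2% of the genes above and 48.2% of those below were higher. The level of the 12311 genes was averaged over all libraries of the study, those of WT cells with rmCIRP included. Genes with few reads in the TLR4-/- label could pass it through these WT libraries, and would then be higher there by selection. Gm16685, above in library 3 with both agents, had 6.9, 7.12 and 31.9 normalized counts. In WT cells with rmCIRP it was higher by 4.58 log2 units. The part of such genes in the shares called higher was not tested. The response to rmTGF-β1 against PBS in the TLR4-/- label, with 12.1% of all genes tested higher and 11.7% lower and 14.3% and 14.1% at this level, was called higher for 18.1% and lower for 16.2% of the 474 genes above in library 3 with both agents, and higher for 10.2% and lower for 23.5% of the 566 genes below. In WT cells the same agent, with 5.77% of all genes tested higher and 6.65% lower and 7.14% and 7.96% at this level, called 3.38% higher and 9.92% lower among the 474, and 6.71% higher and 7.07% lower among the 566. Genes with the largest WT responses to rmCIRP were not all high in library 3. Il1b was higher by 9.87 log2 units and Tnf by 4.91 in WT cells with rmCIRP, and neither was highest in library 3.

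Against rmTGF-β1 alone, adding rmCIRP in the TLR4-/- label was followed by higher mRNA of the chemokines Cxcl1, Cxcl3, Cxcl5 and Ccl7 and lower mRNA of Wnt9a, Wnt10b, elastin and 4 of 15 contractile genes, in a fit that estimates its spread over all 24 libraries. Of 16258 genes tested, 437 passed an adjusted p under 0.1 (2.69%), 254 higher (1.56%) and 183 lower (1.13%), by the edgeR quasi-likelihood test, Benjamini-Hochberg adjusted. Only 29 of them differed by at least 1 log2 unit, and the median size was 0.275. The libraries of the groups did not overlap in 320 of the 437 (73.2%), and in 13% of all genes tested. Library 3 with both agents was the furthest from the rmTGF-β1 mean, in the direction of the call, in 370 of the 437 (84.7%).

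The number of calls changed widely with the libraries kept and with those used to estimate the spread. In a fit of the 6 libraries alone no gene passed by edgeR's quasi-likelihood test, with 972 at an unadjusted p under 0.05 and a lowest adjusted p of 0.68, and in a fit of the 12 libraries labelled TLR4-/- none passed either, with 1953 at an unadjusted p under 0.05. Across all libraries, DESeq2 called 924 genes. Without library 3 with both agents 1 gene was called, Manea, an endomannosidase gene outside the 437 that is named after its value was seen, without rmTGF-β1 library 1 none was (1701 at an unadjusted p under 0.05), and without rmTGF-β1 library 2 there were 79. Leaving out library 1 or 2 with both agents gave 2674 and 738, and leaving out rmTGF-β1 library 3 gave 2141. With both libraries numbered 3 left out, an alternative chosen after seeing the data, 652 genes were called, of which 286 were among the 437.

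Among called genes that averaged 50 or more normalized counts and whose groups did not overlap, Cxcl1 rose most, from 124 ± 39.2 (SD, n = 3) to 587 ± 649 (SD, n = 3), a log2 fold change of 2.21 ± 0.53 (SE; edgeR adjusted p = 0.073). Without library 3 it was 0.79. Dio2, the deiodinase that activates thyroid hormone, had 390, 379 and 574 normalized counts against 729, 727 and 2513, a log2 fold change of 1.54 ± 0.38 (SE; edgeR adjusted p = 0.073). Ramp3, which modifies adrenomedullin receptors, had 77.6, 56.3 and 117 against 119, 134 and 425, a change of 1.39 ± 0.34. Cxcl5, another ligand of CXCR2, had 150, 200 and 205 against 230, 376 and 741, a change of 1.27 ± 0.32. Pi15, a secreted peptidase inhibitor, had 1753, 1909 and 2733 against 3143, 3650 and 8001. In these 5 genes library 3 was the highest of those with both agents. The other 2 were also above every rmTGF-β1 library, which the rule of no overlap required. Without library 3 with both agents the log2 fold changes were 0.69 for Dio2, 0.58 for Ramp3, 0.72 for Cxcl5 and 0.67 for Pi15. The other rises chosen by the same rule were Liph, Nr4a3, Igfbp5, Ahr and Mir703, between 0.76 and 1.16 log2 units. Igfbp5, which binds insulin-like growth factors, had 2801, 2551 and 3565 against 4149, 4076 and 7708. Mir703, at 190, 224 and 214 with both agents against 129, 71.2 and 165, was not led by library 3. The PBS libraries of the same label were above all 3 rmTGF-β1 libraries in the 5 leading genes, with 500, 319 and 287 normalized counts of Cxcl1, 920, 584 and 592 of Cxcl5 and 1819, 1362 and 1051 of Dio2. These genes were chosen as rises over the same rmTGF-β1 libraries, which favours low values there, so this order is not a separate result.

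The largest fall was that of Bc1, a noncoding RNA transcribed by RNA polymerase III, from 807, 1206 and 393 normalized counts to 170, 173 and 217, a log2 fold change of -2.1 ± 0.49 (SE; edgeR adjusted p = 0.073). The rmTGF-β1 libraries varied more than those with both agents here, and without library 3 with both agents the change was -2.22. Wnt10b fell from 72.9, 62.7 and 59.4 to 47.3, 34.7 and 23.7, by 0.88 ± 0.18 log2 units, and Wnt9a from 420, 312 and 426 to 294, 248 and 216, by 0.62 ± 0.1. Both encode Wnt ligands, and Wnt9a had one of the lowest adjusted p of all genes, 0.041 by edgeR. Syn2, a synapsin, went from 276, 247 and 208 to 176, 144 and 92.7, also with an adjusted p of 0.041 by edgeR. Rflnb, a regulator of filamin, had 1677, 1354 and 1334 against 1189, 1098 and 765, and Pth1r, the parathyroid hormone receptor, had 558, 457 and 401 against 399, 353 and 236. The remaining falls chosen by that rule were Kif9, Gm10076, Prr33 and Lysmd1, between -0.54 and -0.65. With PBS under the same label, Wnt10b was at 20.7, 20.1 and 16.9, Wnt9a at 155, 168 and 166 and Rflnb at 687, 722 and 705, all below every library with both agents. This did not hold for Syn2, at 143, 135 and 141 with PBS, Pth1r, at 301, 314 and 294, or Bc1, at 243, 160 and 181.

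**Figure D5:**
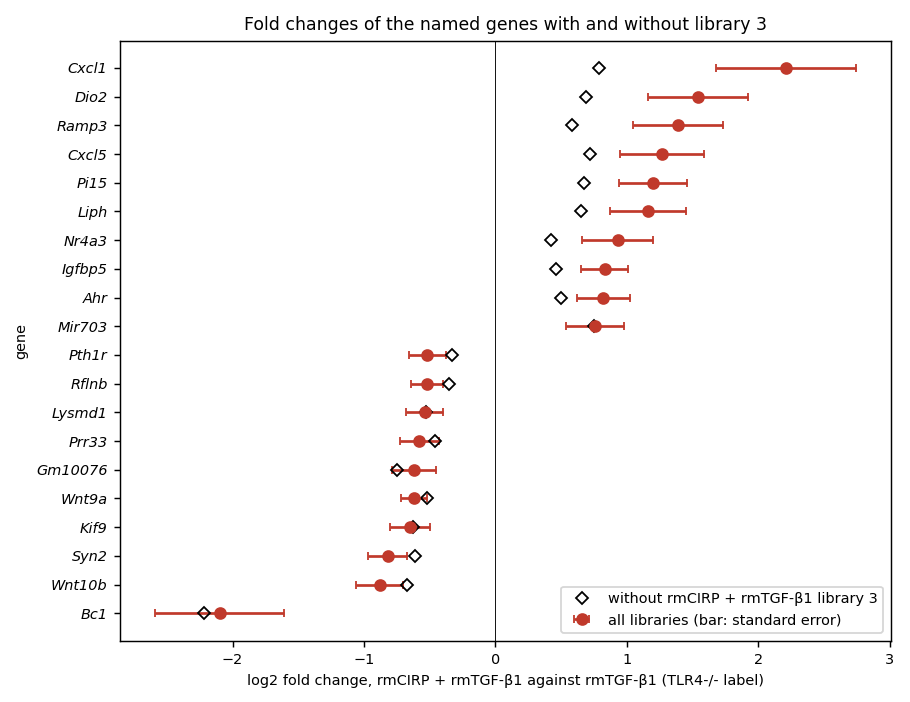
Log2 fold change of the 10 largest rises and the 10 largest falls chosen by the rule, rmCIRP and rmTGF-β1 against rmTGF-β1 in the TLR4-/- label, from all 24 libraries (filled, bar of 1 standard error) and without library 3 with both agents (open diamond). Cxcl1 moves from 2.21 to 0.79 and Dio2 from 1.54 to 0.69, while Bc1 stays near -2.1.

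Of the 567 listed genes that were tested, 41 were called (7.23%), 19 higher and 22 lower, where 2.69% of all genes were. The lists were chosen with earlier results of these data known, and all genes tested include genes with few reads. These shares are therefore given as a description, and whether the listed genes were called more often was not tested. Among inflammatory cytokines and chemokines 4 of 24 were higher, namely Cxcl1, Cxcl3, Cxcl5 and Ccl7, and 1 was lower, namely Csf1, the growth factor of macrophages, at 124007, 124357 and 115995 against 106016, 108173 and 86766. The median log2 fold change of that list was 0.49, against 0 for all genes tested. Among NF-κB subunits and feedback targets 3 of 16 were higher: Nfkbiz had 1727, 2005 and 2296 against 2123, 2681 and 4184, and Nfkbib and Birc3 rose by 0.21 and 0.2 log2 units. Of the fixed genes, Tnf (-0.3 ± 0.11), Il1b (-0.22 ± 0.18) and Il6 (0.71 ± 0.23) did not pass the test by edgeR, with adjusted p of 0.17, 0.56 and 0.13. Without library 3 with both agents Il6 was at 0.21 and Tnf at -0.18, and of 15 alternative settings 5 called Il6 and 4 called Tnf. Tlr4 and Ly96 had log2 fold changes of 0.12 and 0.15 with edgeR adjusted p of 0.25 and 0.35, and edgeR called none of the 16 genes of the TLR4 receptor complex and its signalling, with 3 at an unadjusted p under 0.05 and 1 called by DESeq2. Cirbp, the gene of CIRP itself, had 328, 353 and 300 against 299, 264 and 234, with an edgeR adjusted p of 0.1 that was just outside the threshold.

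Among 15 myofibroblast contractile genes 4 were lower: Acta2 by 0.34 ± 0.1 log2 units, Tpm1 by 0.33, Tpm2 by 0.3 and Actn1 by 0.19, and the median of the list was -0.29. The groups overlapped for Acta2, since rmTGF-β1 library 3, at 201060, was below library 1 with both agents, at 213815. Its edgeR adjusted p was 0.098, and without library 3 with both agents its change was -0.18. Eln and Loxl2, which crosslinks collagen and elastin, were the 2 lower of 16 elastic fiber genes, with Eln at -0.97 ± 0.25, and at -0.63 without library 3 with both agents. No fibrillar collagen of 11 was called by edgeR, with 4 at an unadjusted p under 0.05 and 1 called by DESeq2, and Col1a1 had -0.24 ± 0.08 with an edgeR adjusted p of 0.13. Gclc and Gclm, the subunits of the enzyme that starts glutathione synthesis, were the 2 higher of 14 NRF2 targets. Gclm had 4842, 4740 and 5071 against 5212, 5409 and 7485. Mt2, a metallothionein, had 170, 167 and 205 against 233, 256 and 408. The heat shock genes Hspa1a and Hsph1 were higher and Hspa8 lower, of 14. Mmp19 was higher and Mmp14 lower, of 14 matrix metalloproteinases. Another 3 each of 25 nuclear-encoded oxidative phosphorylation genes and 26 ribosomal protein genes were lower, by 0.12 to 0.18 log2 units.

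None of the 18 macrophage markers, 20 interferon-stimulated genes, 26 cell cycle genes or 20 lysosomal genes was called by edgeR. At an unadjusted p under 0.05 there were 2, 4, 2 and 2 of them, and DESeq2 called 1, 0, 0 and 0. The 20 interferon-stimulated genes all had a log2 fold change below 0, with a median of -0.61. Their rmTGF-β1 mean includes library 2, and Ifit3 had 484 there against 108 and 60.3 in the other 2. The 9 endothelial markers all had a change above 0, with a median of 0.74, and none was called by edgeR, with 4 at an unadjusted p under 0.05 and 1 called by DESeq2. In library 3 their sum was 1555 normalized counts, as given above.

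The overlap of the called genes with those that set a library apart was partial. Of the 413 called genes at this level, 78 (18.9%) set library 3 with both agents apart, as 8.45% of all genes did, and 46 (11.1%) set library 1 apart, as 4.05% did. These shares use the same counts as the calls and are given as a description.

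In the same model, the effect of adding rmCIRP to rmTGF-β1 differed between the genotype labels for 3390 genes (20.9%), and the effect of rmCIRP in the TLR4-/- label differed with and without rmTGF-β1 for 310 (1.91%). Il1b went from 21.2, 10 and 19.4 normalized counts to 16238, 14685 and 16777 in WT cells, against 90.9, 74.4 and 127 and then 66.1, 112 and 73.1 in the TLR4-/- label. The WT groups were far apart and those of the TLR4-/- label overlapped, and the difference between the 2 log2 fold changes was -10.08 ± 0.28 (SE; edgeR adjusted p = 1.7e-16). Il6, which library 3 led in the TLR4-/- label, had a smaller difference of -1.01 ± 0.33 (edgeR adjusted p = 0.038). It went from 13557, 10214 and 10905 to 37203, 36208 and 40910 in WT cells.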

How the data were processed

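Total RNA of RIN 8 or higher was made into stranded libraries after ribosomal RNA depletion. The authors aligned the reads with STAR2 to a mouse genome and counted them per gene with HTSeq, and raw counts per gene were deposited. The labels name the build NCBIM37; versions and the strand setting are not given in the sources used here, so reads of overlapping or antisense genes may be shared. The 5 tally lines of reads on no single gene, 14.9% to 15.3% of all entries counted in the 6 libraries, were left out of library sizes and tests. Depth was 31585969 to 37949832 reads on genes.

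Genes were filtered on low counts (16258 of 55291 kept), scaled by TMM and tested with edgeR 4.0.16 (quasi-likelihood, Benjamini-Hochberg adjustment, threshold 0.1) in R 4.3.3, in 1 fit of 24 libraries with 8 conditions. Normalized counts printed for each library were divided by DESeq2 1.42.0 size factors, and deviations were taken on log2(normalized count + 1) against the mean of the other 2 libraries of the condition, for genes averaging 50 or more. Alternatives were DESeq2, limma 3.58.1 voom with sample quality weights, RLE scaling, other filters, subsets of libraries, a replicate block and leaving out each library. The code was tested on simulated data.

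The genes named are the 10 largest rises and falls that passed, averaged 50 or more and did not overlap, the members of 43 gene lists that passed, Tlr4, Ly96, Cirbp, Tnf, Il1b, Il6, Acta2 and Col1a1, and for each library the 10 genes furthest above and below its replicates. Not every gene these rules name is reported here. Further list members are examples chosen after their values were seen. The lists hold 611 genes, of which 23 were matched by an older symbol. The comparison, the lists and these rules were chosen with earlier results of these data known. Promoters are from RefSeq, GRCm38.p6, and were not joined to the files by coordinates.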

Additional observations from a re-analysis of the deposited data

Results flagged for a closer look

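The effect of adding rmCIRP to rmTGF-β1 differed between the genotype labels for 3390 genes by a test of the difference itself in edgeR. In the TLR4-/- label, the effect of rmCIRP differed with and without rmTGF-β1 for 310 genes by the same kind of test. Among genes that averaged 50 or more normalized counts in the 12 libraries compared, the 3 largest differences in each direction, on the log2 scale, were 4.31 for Susd3, 3.65 for Cnr2 and 3.36 for Hpgd, and -12.99 for Il12b, -10.08 for Il1b and -8.42 for Ifit3b. Susd3, Cnr2 and Hpgd changed by -4.26, -3.67 and -3.65 in WT cells and by 0.05, -0.02 and -0.29 in the TLR4-/- label. Hpgd was near the floor in WT cells, with 4.03, 10 and 4.23 normalized counts and then 1.02, 0 and 0. Il12b had no read in the WT rmTGF-β1 libraries and 786, 759 and 812 normalized counts with both agents, so its fitted value depends on the prior count. Ifit3b shares much of its sequence with Ifit3, and its counts are uncertain for that reason. The difference was -5.32 for Tnf, which had 217, 180 and 222 normalized counts with rmTGF-β1 and 6238, 6658 and 7329 with both agents in WT cells, and -1.01 for Il6. For Il6 the groups labelled TLR4-/- overlapped, and library 3 with both agents was the highest of them.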

How the results depend on the processing

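The 437 calls between both agents and rmTGF-β1 became 924 with DESeq2, 1289 with limma voom and sample quality weights (which gave library 3 with both agents 0.19, the lowest weight of 24), and 1580 with no filter on low counts, 20 of them genes that the filter removes. They became 0 in the 6 libraries alone and 0 in the 12 labelled TLR4-/-, and 0 to 2674 with each library left out. With TMM replaced by RLE, 412 were called, 266 higher and 146 lower. The 310 interaction calls became 606, 1242 and 1357 under the first 3 settings and 4 in the libraries compared alone, Bc1 among them. Leaving out each library gave 9 to 1621, with 9 without rmCIRP library 2, 46 and 80 without rmTGF-β1 libraries 1 and 2, 51, 104 and 112 without PBS libraries 2 and 1 and rmCIRP library 1, and 1223 and 1621 without rmTGF-β1 library 3 and library 1 with both agents. With both libraries numbered 3 left out, an alternative chosen after seeing the data, it was 899. The 3390 genotype differences stayed between 2504 and 4639. With genes down to a mean of 10 normalized counts, the rmTGF-β1 libraries stood apart on 674, 1006 and 1133 genes and those with both agents on 1314, 758 and 2044. With a deviation of 0.5 from each other library, also chosen after seeing the data, they stood apart on 36, 132 and 249, and on 128, 40 and 706.

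The log2 fold change of Il1b, -0.22, turned to 0.09 with quality weights and 0.11 without both libraries numbered 3, and ran from -0.51 to 0.02 with single libraries left out. Of the 64 named genes, 57 had been called, and all 57 lost their call without library 3 with both agents, as they did without rmTGF-β1 library 1. With both libraries numbered 3 left out, the alternative chosen after seeing the data, 17 of the 57 lost it. None lost it with DESeq2, which gave a value for 58 of the 64. The cause of these shifts was not tested.

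The replicate numbers matched the libraries only in part. Deviations of libraries with the same number had correlations of 0.42, 0.09 and 0.56 over 12311 genes. For rmTGF-β1 libraries 1 and 3 these were the highest, while rmTGF-β1 library 2 correlated best with library 1 of both agents, at 0.4. A fit with a replicate block gave 810 calls, the 437 among them, 3454 genotype differences and 475 interaction calls. A batch shared by libraries of the same number was not tested. With 3 libraries a group, the condition and a single deviating library cannot be told apart.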
